A study of Mus musculus with 8 samples.

Results

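Probe sets for 10 genes of bile acid synthesis and its feedback control were followed in mouse liver. The genes were the enzymes Cyp7a1, Cyp8b1, Cyp27a1, Hsd3b7, Akr1d1 and Amacr, the conjugation enzymes Slc27a5 and Baat, and the nuclear receptors Nr1h4 (FXR) and Nr0b2 (SHP). Every probe set annotated to exactly 1 of these genes was taken, which gave 14 of the 45037 probe sets on the array, and 10 of the 18193 genes with such a probe set. A filter on dim probe sets kept 13 of the 14, with at least 1 for each gene. The second Cyp27a1 probe set was left out, with an intensity of 11.5, 8.88, 23.8 and 14.7 on the Pemt-/- arrays and 19.3, 34.1, 2.05 and 15.1 on the Pemt+/+ arrays at weeks 1 to 4.

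The arrays measured total RNA of whole liver from Pemt-/- and Pemt+/+ mice. Pemt-/- mice lack, throughout the body, phosphatidylethanolamine N-methyltransferase, which makes phosphatidylcholine from phosphatidylethanolamine. Both genotypes received the same diet, rich in fat and sucrose (HFHS), for 1, 2, 3 or 4 weeks, with 1 array per genotype and week and so 4 arrays per genotype. No array of a mouse on standard chow or before the diet is among the 8, so every difference below is between genotypes or between weeks of the diet. The study's methods describe male mice and give 4 mice per genotype for these arrays, and the labels do not say whether an array held the RNA of 1 mouse or of several. The p-values therefore reflect only how these arrays vary, with each array of a genotype from another week. In RNA of whole liver, fewer cells of a type and less RNA per cell cannot be told apart.

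Bile acids are made from cholesterol in hepatocytes. In the classic route Cyp7a1, a cholesterol 7 alpha-hydroxylase, is the rate-limiting enzyme, Hsd3b7 and Akr1d1 change the steroid ring, and Cyp8b1 adds the hydroxyl group that makes cholic acid. Cyp27a1 begins oxidation of the side chain, Amacr sets its configuration, and Slc27a5 and Baat join the finished acid to an amino acid such as taurine. Bile acids activate FXR, which raises SHP, and SHP represses Cyp7a1 and Cyp8b1 through factors such as LRH-1 (Nr5a2) and HNF4A.

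The sequence upstream of the start was matched in RefSeq (GRCm38.p6) for 6 of the 10 genes, Cyp8b1, Cyp27a1, Hsd3b7, Akr1d1, Nr1h4 and Nr0b2. Those of Cyp8b1 and Nr0b2 are shown because these genes varied most between weeks in Pemt-/- liver. Each line gives the 250 bases before the start, on the strand of the gene, with motif matches in capitals.
Cyp8b1 (chr9:121916306-121916555, minus strand): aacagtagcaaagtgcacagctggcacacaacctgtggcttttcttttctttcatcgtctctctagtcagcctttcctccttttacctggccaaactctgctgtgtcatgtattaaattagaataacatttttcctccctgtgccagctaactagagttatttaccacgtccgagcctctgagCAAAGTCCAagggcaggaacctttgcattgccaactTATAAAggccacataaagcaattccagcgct
Nr0b2 (chr4:133553126-133553375, plus strand): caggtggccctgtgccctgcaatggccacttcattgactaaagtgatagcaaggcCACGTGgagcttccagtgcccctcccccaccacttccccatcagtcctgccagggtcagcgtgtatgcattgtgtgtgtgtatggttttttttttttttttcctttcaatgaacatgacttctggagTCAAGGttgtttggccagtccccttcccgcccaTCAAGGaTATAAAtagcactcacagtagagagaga
The motifs were searched on both strands of the 250 bases. In the Cyp8b1 sequence the capitals mark CAAAGTCCA, of the type that HNF4A binds, at -67 to -59, and TATAAA at -31 to -26. In the Nr0b2 sequence they mark CACGTG (an E-box) at -195 to -190, TCAAGG (the LRH-1 core) at -68 to -63 and again at -35 to -30, and TATAAA at -28 to -23. CAAAGTCCA stood in 0.384% of 32851 promoter windows of this length, TCAAGG in 12.5%, CACGTG in 6.02% and TATAAA in 12.4%. AGGTCA, the hexamer that nuclear receptors bind, stood in 14.0% of the windows and in those of Akr1d1 and Nr1h4, and the Akr1d1 window also held TCAAGG, overlapping it. TTATGTAA (a D-box), in 0.819% of windows, had no match upstream of the 6 genes. The FXR element, an inverted repeat of AGGTCA spaced by 1 base, matched best upstream of Cyp8b1 with 3 mismatches, and a match this close or closer stood in 9.63% of windows. These matches are letters in a window and not measured binding.

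Over the 4 weeks most of the synthesis and conjugation enzymes were lower in Pemt-/- liver. In this report fell and rose mean lower and higher in Pemt-/- than in Pemt+/+ liver. They mean a change during the diet only where a change per week is given. Of the 13 probe sets, 8 fell, belonging to 7 genes (Cyp8b1, Cyp27a1, Hsd3b7, Akr1d1, Amacr, Slc27a5 and Baat), 0 rose and 5 did not pass the test. At an unadjusted p under 0.05, 9 fell and 1, the brighter Cyp7a1, rose. The share of all probe sets at that level was not counted for the genotype difference, here or for the lists below. The test was limma's moderated test on log2(intensity + 16) with week as a block and Benjamini-Hochberg adjustment over 27022 probe sets, at an adjusted p under 0.05. By the same test 5.86% of all probe sets fell and 10.3% rose. The median log2 difference, Pemt-/- minus Pemt+/+, was -0.58 over the 13 probe sets and 0.02 over all. With the deposited scaling, every Pemt-/- array lay below every Pemt+/+ array on 7 of the 13, which held for 8.96% of all probe sets, and 6 overlapped. When the arrays were centred on the median of the kept probe sets, the overall median moved to -0.14 and 3280 probe sets fell and 1977 rose, against 1584 and 2788 with the deposited scaling, and 8 of the 13 still fell. Under quantile normalization 6 of the 13 fell, while over all probe sets 1733 fell and 2336 rose. With no filter on dim probe sets the count was 7, and 1169 of all 45037 probe sets fell. The count of 8 was 4 without week 1, 8 without week 2, 2 without week 3 and 3 without week 4. With the same weeks left out, 921, 1851, 484 and 577 of all 27022 probe sets fell, against 1584 with all weeks.

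**Figure D1:**
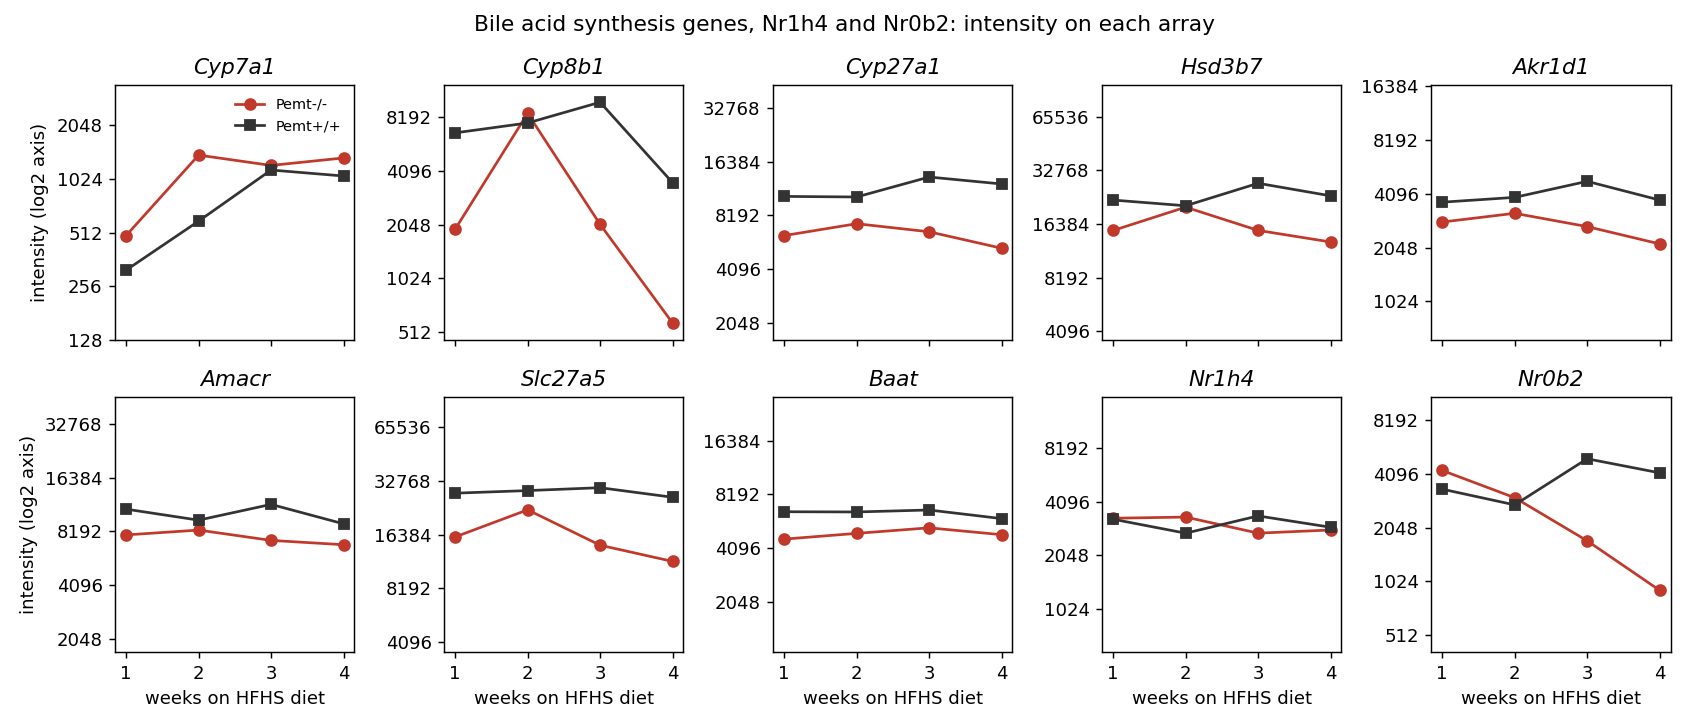
Intensity (log2 axis, the same number of doublings in each panel) of each gene's brighter probe set against weeks on the HFHS diet, with 1 point per array, Pemt-/- as red circles and Pemt+/+ as dark squares. Cyp27a1, Slc27a5, Baat and Amacr were lower on the Pemt-/- array in all 4 weeks, and Nr0b2 was at 913 at week 4 in Pemt-/- liver, against 4164 in Pemt+/+ liver.

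Cyp7a1, at the entry of the classic route, was the exception among the enzymes. Its brighter probe set had intensities of 492, 1391, 1217 and 1341 in Pemt-/- liver at weeks 1 to 4, against 315, 593, 1147 and 1062 in Pemt+/+ liver. With the deposited scaling the Pemt-/- array was higher in 4 of 4 weeks, the groups overlapped, and the lowest value of both genotypes was that of week 1. At week 3 the log2 difference was -0.008 under quantile normalization and -0.11 with centring on the kept probe sets. Over the weeks the difference was 0.56 ± 0.18 on the log2 scale (SE, n = 4 arrays per genotype) and did not pass the test (limma, adjusted p = 0.0628, 0.0528 to 0.385 over the alternatives). The dimmer probe set had 109, 422, 272 and 160 in Pemt-/- liver and 93.8, 139, 252 and 179 in Pemt+/+ liver. It was also highest in Pemt-/- liver at week 2, was lower in Pemt-/- liver at week 4, and differed by 0.41 ± 0.27 over the weeks (adjusted p = 0.338). Without week 2 the difference was 0.35 on the brighter probe set and 0.04 on the dimmer. At week 2 the ratio of Pemt-/- to Pemt+/+ was 2.35 for the brighter and 3.04 for the dimmer probe set, and at week 3 it was 1.06 and 1.08.

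Cyp8b1, which decides how much cholic acid is made, showed the widest swing of the 10 genes in Pemt-/- liver. Its intensity there was 1934, 8630, 2059 and 576 at weeks 1 to 4, against 6711, 7625, 9967 and 3527 in Pemt+/+ liver. Pemt-/- liver was far lower at weeks 1, 3 and 4 and slightly higher at week 2, so the groups overlapped. The Pemt+/+ value exceeded that of Pemt-/- 3.47-fold at week 1, 4.84-fold at week 3 and 6.12-fold at week 4. Fitted with week as a block, Cyp8b1 was lower in Pemt-/- liver by 1.61 ± 0.37 on the log2 scale, which is 3.06-fold (adjusted p = 0.0208). It no longer passed when week 1 (adjusted p = 0.0939), week 3 (0.0909) or week 4 (0.0760) was left out, when the week block was dropped (0.0997), or without the intensity trend of the variance (0.0807). Without week 2 the difference was -2.21.

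Cyp27a1, the mitochondrial sterol 27-hydroxylase that also opens the acidic route, was lower in every week. It had 6311, 7357, 6628 and 5361 in Pemt-/- liver and 10466, 10390, 13442 and 12288 in Pemt+/+ liver. The groups did not overlap. It fell by 0.86 ± 0.12 (adjusted p = 0.00285), 1.81-fold lower in Pemt-/- liver, and the call held under all 13 alternatives, with adjusted p between 0.000927 and 0.0320.

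The ring-modifying enzymes moved less. Hsd3b7, the 3 beta-hydroxysteroid dehydrogenase of the route, had 15084, 20382, 15093 and 12999 in Pemt-/- liver and 22331, 20748, 27740 and 23584 in Pemt+/+ liver. The groups stood apart with the deposited scaling, though at week 2 the genotypes differed by only 0.03 on the log2 scale. That week Pemt-/- liver was the higher by 0.10 under quantile normalization and by 0.07 with median centring over all probe sets, so the groups then overlapped. With centring on the kept probe sets the week 2 difference was -0.07. Fitted with week as a block, Hsd3b7 was lower in Pemt-/- liver by 0.58 ± 0.14 (adjusted p = 0.0242). This did not hold without week 1 (adjusted p = 0.0871), week 3 (0.128) or week 4 (0.107), under quantile normalization, where the difference was -0.35 (0.0743), with no filter on dim probe sets (0.0509) and without the variance trend (0.0981).

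Akr1d1 is the delta 4-3-oxosteroid 5 beta-reductase. Its brighter probe set had 2847, 3186, 2684 and 2146 in Pemt-/- liver and 3678, 3913, 4814 and 3780 in Pemt+/+ liver. No Pemt-/- array reached the lowest Pemt+/+ array, and the fall was 0.58 ± 0.12 (adjusted p = 0.0138), lost without week 3 (0.0856), week 4 (0.0717) or the variance trend (0.0692). The dimmer probe set had 2652, 2093, 1871 and 1261 in Pemt-/- liver and 2573, 2157, 3506 and 2364 in Pemt+/+ liver. The genotypes were close at weeks 1 and 2 and apart at weeks 3 and 4, the groups overlapped, and the difference was -0.45 ± 0.18 (adjusted p = 0.122). With the probe sets of the gene averaged, the test of Akr1d1 passed, with an adjusted p of 0.0492.

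Amacr, the racemase of the side chain, had 7829, 8334, 7294 and 6899 in Pemt-/- liver and 10920, 9473, 11611 and 9034 in Pemt+/+ liver. All Pemt-/- arrays lay below all Pemt+/+ arrays, with the fall at 0.43 ± 0.10 (adjusted p = 0.0206). It did not pass without week 1 (adjusted p = 0.0753), week 3 (0.136) or week 4 (0.0751), without the variance trend (0.0972), or under quantile normalization, where the difference was -0.27 (0.0684).

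Both conjugation enzymes were lower in Pemt-/- liver at every week. Slc27a5, the bile acyl-CoA synthetase, had 15876, 22538, 14270 and 11578 in Pemt-/- liver and 27944, 28894, 29990 and 26509 in Pemt+/+ liver. Pemt+/+ arrays varied little, Pemt-/- liver was nearest to them at week 2, and the groups did not overlap. Slc27a5 fell by 0.86 ± 0.13 (adjusted p = 0.00416), 1.81-fold lower in Pemt-/- liver, and passed under all 13 alternatives, with adjusted p up to 0.0390.

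Baat transfers the activated bile acid to the amino acid. Its brighter probe set had 4595, 4948, 5315 and 4864 in Pemt-/- liver and 6542, 6524, 6691 and 5988 in Pemt+/+ liver, and its dimmer probe set had 977, 819, 976 and 969 in Pemt-/- liver and 1241, 1679, 1907 and 1454 in Pemt+/+ liver. On neither probe set did the groups overlap. The brighter fell by 0.38 ± 0.09 (adjusted p = 0.0187) and the dimmer by 0.72 ± 0.14 (adjusted p = 0.00919). The brighter lost its call without week 1 (0.0654), week 3 (0.0907), week 4 (0.0680) or the variance trend (0.0936), and the dimmer without week 3 (0.0566).

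Nr1h4, the bile acid receptor FXR, did not pass the test. It had 3312, 3362, 2732 and 2845 in Pemt-/- liver and 3269, 2731, 3413 and 2949 in Pemt+/+ liver. The groups overlapped, with Pemt-/- liver the higher at weeks 1 and 2 and the lower at weeks 3 and 4. The difference was -0.01 ± 0.11 (adjusted p = 0.952).

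Nr0b2, the FXR target SHP, was lower at each later week in Pemt-/- liver than at the week before. Its intensity was 4294, 3022, 1732 and 913 at weeks 1 to 4 in Pemt-/- liver, against 3374, 2753, 4993 and 4164 in Pemt+/+ liver. Pemt-/- liver was the higher at weeks 1 and 2, and Pemt+/+ liver exceeded it 2.88-fold at week 3 and 4.56-fold at week 4. Over the weeks the difference was -0.80 ± 0.37 (adjusted p = 0.184), and it was -0.35 without week 4 and -1.18 without week 1. In a fit of 1 straight line per genotype, Nr0b2 fell by 0.74 ± 0.09 on the log2 scale per week in Pemt-/- liver (adjusted p = 0.0363), a call that 0.0740% of all probe sets shared, and changed by 0.18 ± 0.09 per week in Pemt+/+ liver (adjusted p = 0.964). The fall in Pemt-/- liver did not pass without week 1 (adjusted p = 0.0915), week 3 (0.114) or week 4 (0.902), with no filter on dim probe sets (0.0663), with centring on the kept probe sets (0.0696) or without the variance trend (0.309).

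**Figure D2:**
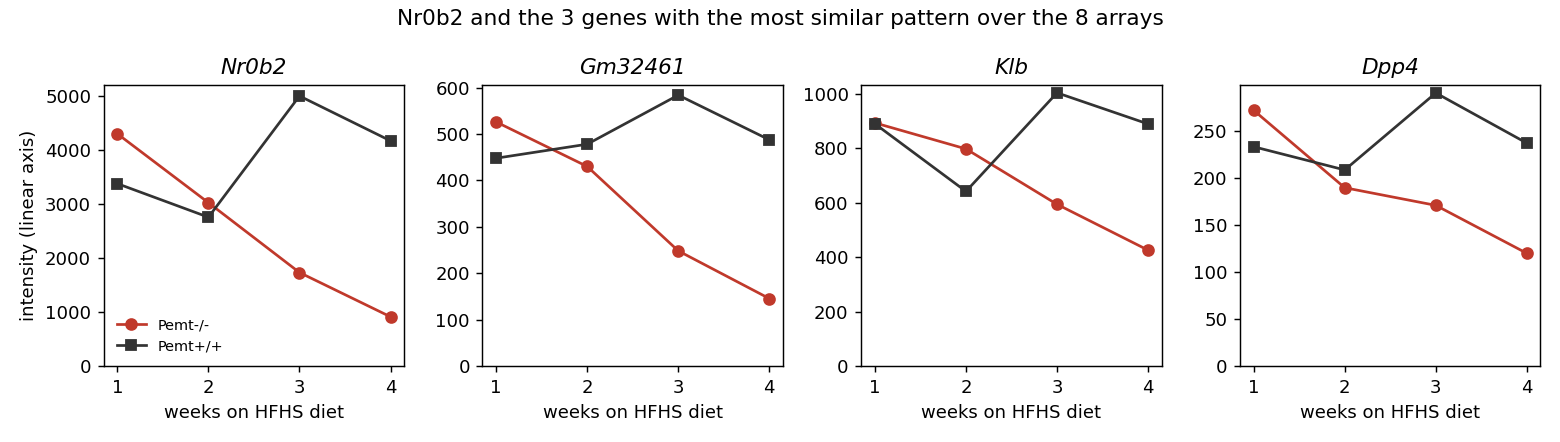
Intensity (linear axis from 0) of Nr0b2 and of the 3 genes most like it over the 8 arrays, against weeks on the HFHS diet, with 1 point per array, Pemt-/- as red circles and Pemt+/+ as dark squares. At week 4 Klb was at 426 in Pemt-/- liver and at 890 in Pemt+/+ liver.

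The difference between the genotypes in change per week was -0.92 ± 0.13 for Nr0b2 (limma, unadjusted p = 4.02e-05, adjusted p = 0.498). By limma, 0 of the 27022 probe sets were called lower (0%) or higher (0%) in change per week in Pemt-/- liver, and 0 (0%) changed per week in Pemt+/+ liver. At an unadjusted p under 0.05, 2 of the 13 probe sets had a lower change per week in Pemt-/- liver, Nr0b2 and the dimmer Akr1d1, against 3.08% of all probe sets, and none a higher one, against 3.65%. In Pemt+/+ liver 1 of the 13, the brighter Cyp7a1, changed at that level, at 0.60 ± 0.15 per week (adjusted p = 0.690), against 5.45% of all. In Pemt-/- liver 4 of the 13 changed at that level, and the share of all probe sets was not counted. The brighter Cyp7a1 was 1 of these 4, at 0.41 ± 0.15 per week (adjusted p = 0.374). The estimated genotype difference in change per week was below 0 for 12 of the 13 probe sets, and for 48.6% of all.

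Week by week, the median difference of the 13 probe sets was -0.37, -0.04, -0.88 and -0.81 at weeks 1 to 4, and 8, 8, 11 and 12 of them were below 0. The median over all probe sets stayed between -0.01 and 0.05. A ratio of 0.5 or less was found for 1, 1, 4 and 4 of the 13, against 4.09%, 5.66%, 5.61% and 5.85% of all probe sets. At week 4 these 4 were Cyp8b1, Cyp27a1, Slc27a5 and Nr0b2. A ratio of 2 or more was found for 0, 2, 0 and 0, against 7.56%, 6.50%, 9.79% and 10.2%, and the 2 at week 2 were both probe sets of Cyp7a1. These weekly ratios compare 1 array with 1 array and have no replicate check.

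**Figure D3:**
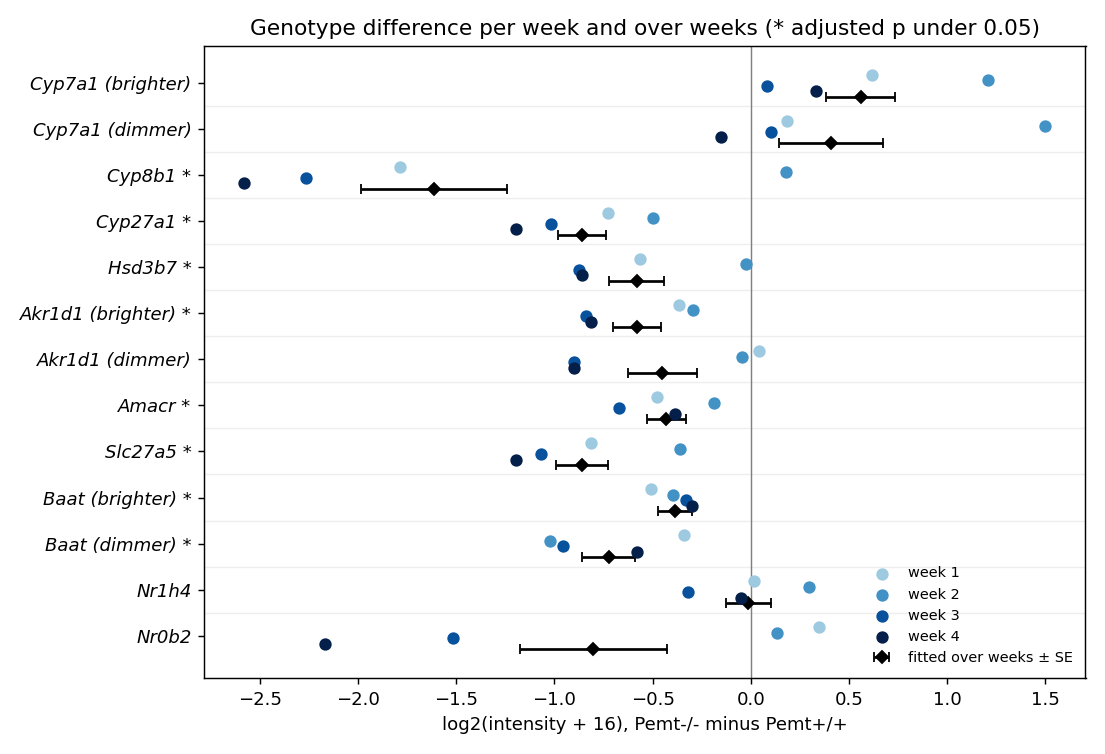
Difference in log2(intensity + 16), Pemt-/- minus Pemt+/+, for the 13 probe sets, with blue points for weeks 1 to 4 (light to dark) and black diamonds for the fit over weeks with its SE, and an asterisk where the adjusted p was under 0.05. The week 2 points of Cyp8b1 (0.18) and Hsd3b7 (-0.03) sit near 0, and those of Nr0b2 run from 0.35 at week 1 to -2.17 at week 4.

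The genes with the most similar course were taken by Pearson's r of the log2 values over the 8 arrays, among 8704 candidates. Candidates were kept probe sets of other single genes whose values ranged over at least 1 on the log2 scale. Nr1h4 itself varied less than that, so genes as steady as Nr1h4 could not be chosen. This is a description in which all points share the same arrays, genotypes and weeks. Nr0b2 was nearest to Gm32461 (r = 0.976), Klb (0.974), the co-receptor by which liver cells sense FGF15, and Dpp4 (0.973), a dipeptidyl peptidase. Klb had 894, 798, 595 and 426 in Pemt-/- liver and 890, 642, 1004 and 890 in Pemt+/+ liver, with a difference of -0.37 (adjusted p = 0.285). The genotypes had nearly the same Klb level at week 1 and stood far apart at week 4. Cyp8b1 was nearest to Tmem25 (0.978), Palld (0.972) and Cyp4f14 (0.972), Cyp7a1 to Lad1 (0.943), Ntmt1 (0.942) and Rnf220 (0.929), and Nr1h4 to Prss2 (0.914), Ppm1k (0.896) and Stox2 (0.895).

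Among 15 further enzymes of bile acid synthesis, 9 fell, 1 rose and 5 did not pass, with a median of -0.43. Cyp7b1, the oxysterol 7 alpha-hydroxylase of the acidic route, had 1111, 2203, 1110 and 2675 in Pemt-/- liver, against 8682, 30423, 25383 and 26847 in Pemt+/+ liver. These groups lay far apart, with a fall of 3.64 ± 0.21 (adjusted p = 0.000166). Cyp2c70, which makes the muricholic acids of the mouse, fell by 0.99 ± 0.09 (adjusted p = 0.000693), and Hsd17b10, a mitochondrial dehydrogenase, by 0.95 ± 0.12 (adjusted p = 0.00183). Cyp39a1, which 7 alpha-hydroxylates 24-hydroxycholesterol, was the one that rose, by 0.70 ± 0.13 (adjusted p = 0.0083, and 0.0502 without the variance trend). The list's count of falls was 3 without week 3, 4 without the variance trend, 5 without week 4 or under quantile normalization, and 6 with no filter on dim probe sets.

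Of 17 tested regulators of the pathway, 3 fell and 0 rose (5 and 0 at an unadjusted p under 0.05), and 5 fell with centring on the kept probe sets. Cebpa, a hepatocyte transcription factor, fell by 0.78 ± 0.09 (adjusted p = 0.00165) and Hnf4a by 0.63 ± 0.09 (adjusted p = 0.00334). Both genes are also counted among the hepatocyte markers below. Ppara, the fatty acid receptor, fell by 0.62 ± 0.12 (adjusted p = 0.0103, but 0.0667 without week 3, 0.0555 without week 4 and 0.0601 without the variance trend). Rxra, the partner receptor of FXR, differed by -0.30 ± 0.09 (adjusted p = 0.0526). Nr5a2 and Fgfr4, outside the 4 genes of smallest p, are given for their place in the feedback and were chosen after their values were seen. Nr5a2 (LRH-1) differed by -0.23 ± 0.12 (adjusted p = 0.220), and Fgfr4, the FGF15 receptor, by -0.21 ± 0.13 (adjusted p = 0.303).

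Other targets of FXR did not move one way. Of 12, 4 fell, 2 rose and 6 did not pass, with a median of 0.05, or -0.11 after centring on the kept probe sets. Fgg, the fibrinogen gamma chain, fell by 0.48 ± 0.09 (adjusted p = 0.00893), and did not pass without week 3 (0.0772), without week 4 (0.0509), without the variance trend (0.0694) or under quantile normalization, where the difference was -0.14 (0.137). Abcb11, the canalicular export pump for bile salts, fell by 0.51 ± 0.11 (adjusted p = 0.0147), while Abcb4, the phosphatidylcholine floppase, rose by 0.43 ± 0.09 (adjusted p = 0.0145) and Slc51b, a subunit of the basolateral bile acid exporter, by 0.99 ± 0.22 (adjusted p = 0.0175). Without week 3 none of these 3 passed (adjusted p = 0.0858, 0.0845 and 0.0862). By limma 0 of the 12 passed without week 3 or without the variance trend, against 4 lower and 4 higher at an unadjusted p under 0.05 in both settings. Slc51b also lost its call without week 1 (0.0760), and Abcb11 and Abcb4 without week 4 (0.0755 and 0.0697). Abcb4 also lost it with centring on the kept probe sets (0.124).

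The 12 bile acid transporters were divided, with 5 lower, 5 higher and 2 not passing. Abcb11, Abcb4, Slc51b and Slc51a are counted both here and among the FXR targets above. Slco1a4, an uptake carrier, rose by 1.68 ± 0.13 (adjusted p = 0.00046), and Slco1a1, of the same family, fell by 1.73 ± 0.23 (adjusted p = 0.0024). Atp8b1, a canalicular flippase, fell by 0.65 ± 0.11 (adjusted p = 0.00549), and Abcc4, a basolateral exporter, rose by 0.96 ± 0.17 (adjusted p = 0.00653). Without week 3 or the variance trend, 2 fell and 2 rose, and without week 4, 3 and 3.

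Among 9 targets of LXR, the oxysterol receptor that induces Cyp7a1 in mice, 5 fell and 1 rose. Abcg1, a sterol exporter, rose by 1.29 ± 0.17 (adjusted p = 0.00222), Srebf1 fell by 0.80 ± 0.11 (adjusted p = 0.00294), and Abcg8, the biliary sterol exporter, by 0.82 ± 0.15 (adjusted p = 0.00857). The count of falls was 3 with median centring over all probe sets, and 2 under quantile normalization, without weeks 1, 3 or 4, with no filter on dim probe sets, or without the variance trend.

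**Figure D4:**
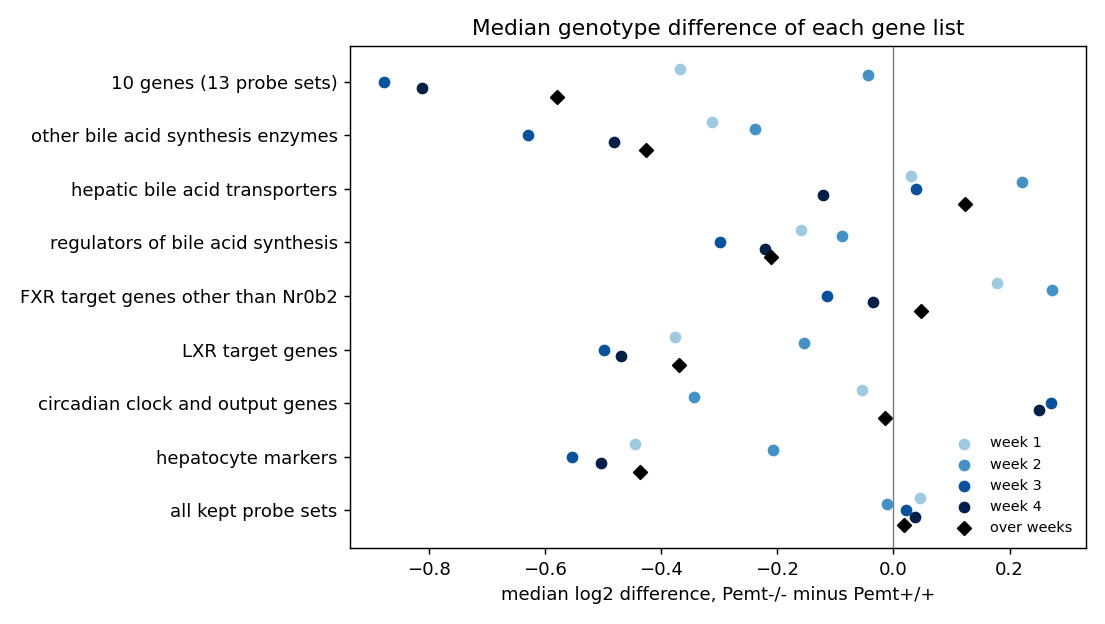
Median log2 difference, Pemt-/- minus Pemt+/+, of the 13 probe sets, of 7 gene lists and of all probe sets, with blue points for weeks 1 to 4 (light to dark) and black diamonds for the fit over weeks. The median of the 13 probe sets (-0.58) and that of hepatocyte markers (-0.44) lay below 0, and in both the week 2 point was nearest to 0.

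Other features of the same arrays moved with the genotype. Pemt itself was 23.2-fold lower in Pemt-/- liver, at 201 to 255 against 4989 to 6045 in Pemt+/+ liver, and the sources used here do not say whether its probe set lies in the deleted part. Of 22 hepatocyte markers, 19 fell and 0 rose, with a median of -0.44, and their summed intensity was 539551 to 691300 in Pemt-/- liver against 769550 to 830593 in Pemt+/+ liver. The count of falls was 6 without week 3, 7 without week 4, 9 without week 1, 11 with no filter on dim probe sets and 6 without the variance trend. Under quantile normalization 6 of the 22 fell, with a median of -0.12, and the median of the 13 probe sets was -0.48. With the deposited scaling, the weekly medians of the hepatocyte markers were -0.44, -0.21, -0.55 and -0.50, nearest to 0 at week 2. Macrophage markers rose in 9 of 12 (summed intensity 26901 to 34090 in Pemt-/- and 11543 to 16951 in Pemt+/+ liver), stellate and matrix markers in 11 of 11 (42454 to 63321 and 15000 to 20923), and proliferation markers in 9 of 9. The part of these changes in the values of the 10 genes was not tested.

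Set against the hepatocyte median of -0.44, the differences of Cyp8b1, Cyp27a1 and Slc27a5 lay -1.18, -0.42 and -0.42 away. Nr0b2 lay -0.37 and the dimmer Baat probe set -0.29 away, and Hsd3b7 and the brighter Akr1d1 probe set -0.14. The dimmer Akr1d1 probe set, Amacr and the brighter Baat probe set were nearest to it, at -0.01, 0.01 and 0.05. Nr1h4 stood 0.42 above it, and the Cyp7a1 probe sets 1.00 and 0.85 above it. These distances depend on the scaling. Under quantile normalization, with the hepatocyte median at -0.12, they were -1.48 for Cyp8b1, -0.60 for Cyp27a1 and -0.49 for Slc27a5. Nr0b2 (-0.69) and the dimmer Baat (-0.68) then lay farther away than Cyp27a1 and Slc27a5. The distances were -0.15 for Amacr, -0.19 for the brighter Baat, -0.24 for Hsd3b7, -0.45 for the brighter Akr1d1 and -0.36 for the dimmer Akr1d1. Under that scaling Nr1h4 stood 0.12 and the Cyp7a1 probe sets 0.58 and 0.41 above the hepatocyte median. These are differences of fitted values with no test.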

How the data were processed

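Total RNA of mouse liver was hybridised to 8 Affymetrix expression arrays. The authors deposited linear probe set intensities, and on every array the mean after trimming 2% at each end was 500. The software listed in the processing notes is Affymetrix Expression Console. No version or way of summarising probes is given there. Of 45101 probe sets, 64 controls were left out. Genes were assigned by the platform annotation, with 34945 probe sets naming 1 gene, 932 several and 9160 none. For 34741 of the 34945 the symbol was taken from RefSeq by Entrez identifier, and for the others from the platform annotation.

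Values were analysed as log2(intensity + 16), keeping probe sets with a mean above the 40th percentile (an intensity of about 45.5). Fits were made in limma 3.58.1 (R 4.3.3), with eBayes and an intensity trend, on genotype with week as a block, and on genotype-specific changes per week. Benjamini-Hochberg adjustment covered 27022 probe sets, with a threshold of 0.05, and the fits were tested on simulated data. Genes of lists were represented by the probe set of highest mean. All probe sets of the 10 genes are named, and for the lists up to 4 genes of smallest p, with Nr5a2, Fgfr4 and Pck1 added after their values were seen. The genes and lists were chosen with earlier results of these data known. The number of arrays limits the precision. Alternatives varied the filter, scaling, pseudocount, variance trend, block, probe set rule and weeks. Centring on the kept probe sets, and all alternatives for list genes and for the Nr0b2 change per week, were chosen after seeing the data.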

Additional observations from a re-analysis of the deposited data

Results flagged for a closer look

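The dimmer Baat probe set in Pemt-/- liver had an intensity of 819 at week 2, against 969 to 977 at the other weeks of that genotype. The gap to the nearest array was 0.952 of the range of the group, above Dixon's critical value for 4 arrays. Of 26 groups of 4 arrays examined, 1 stood out in this way, and chance alone gives about 1 in 20. The 4 arrays of a group come from different weeks.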

How the results depend on the processing

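Of 175 alternative values of the genotype difference for the 13 probe sets, 149 kept their direction and side of the threshold, 24 kept the direction but no longer passed, 1 newly passed and 1 changed sign. The 8 probe sets that fell became 3 without the variance trend, 6 under quantile normalization and 7 with no filter on dim probe sets. When 1 week was left out, between 2 and 8 fell. No probe set of the 10 genes rose, and none differed in change per week, under any alternative run. Changes of sign were seen only for values that had not passed. With 1 week left out, the Nr1h4 difference lay between -0.12 and 0.0887. The difference in change per week lay between -0.10 and 0.0124 for Amacr, which was 0.00223 under quantile normalization, and between -0.31 and 0.22 for the dimmer Baat probe set. The cause was not tested.

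Without week as a block, 7 probe sets fell, Cyp8b1 no longer passing (adjusted p = 0.0997), and no other call of the 13 changed. Arrays of the same week had correlations of deviations of 0.105, -0.020, -0.029 and 0.113, not all above 0.1. Each value comes from 1 pair of arrays. What arrays of a week share besides time on the diet was not tested, and these values cannot decide it. Over all 27022 probe sets, 1584 fell and 2788 rose, and without the variance trend 633 and 1715. Leaving out week 1 gave 921 and 1947, week 2 gave 1851 and 2942, week 3 gave 484 and 1334, and week 4 gave 577 and 1463. Centring on the kept probe sets gave 3280 and 1977. With 1 array per genotype and week, weekly differences carry no error estimate.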

Other observations

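Liver genes of the fasting and feeding responses, joined in 1 list, also differed between the genotypes. Of 12 tested, 5 fell, 2 rose and 5 did not pass (limma, Benjamini-Hochberg). The 5 falls became 2 without week 3 or the variance trend, and 3 without week 4, with no filter on dim probe sets or under quantile normalization. Fgf21, a hepatic hormone of fasting and stress, had 4121, 494, 2081 and 8313 in Pemt-/- liver at weeks 1 to 4, against 155, 155, 491 and 634 in Pemt+/+ liver. It was higher in Pemt-/- liver in 4 of 4 weeks, and lowest there at week 2. Thrsp, a lipogenic gene, had 3523, 12067, 8956 and 3411 in Pemt-/- liver and 15503, 28824, 21459 and 27427 in Pemt+/+ liver. All Pemt-/- arrays lay below all Pemt+/+ arrays, and Thrsp was highest in both genotypes at week 2. Srebf1, a lipogenic regulator, also belongs to this list and fell by 0.80 ± 0.11 (adjusted p = 0.00294). Igfbp1 was the other gene that rose, by 1.34 ± 0.23 (adjusted p = 0.00688). Pck1, outside the 4 genes of smallest p and chosen after its values were seen, fell by 0.46 ± 0.09 (adjusted p = 0.0104). Of 12 clock genes tested, 1 fell and 0 rose (2 and 0 at an unadjusted p under 0.05). That gene, Hlf, fell by 0.54 ± 0.14 (adjusted p = 0.0334) and did not pass without week 1 (0.0714), week 3 (0.162), week 4 (0.0707) or the variance trend (0.0843).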
